A study of Danio rerio with 3 samples.

Results

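The families described here are microRNAs (miRNAs) known mainly from fish, together with a few neighbours in number that other vertebrates share. They were chosen by name alone, as every sequence of the authors' table of all libraries whose miRNA name has a fish prefix and a family from miR-455 to miR-461, from miR-722 to miR-740 without miR-731, or from miR-2184 to miR-2198. The choice took in 73 lines of the table, which hold 64 distinct mature sequences of 27 families, out of 1202 sequences in all. Zebrafish names (prefix dre) were carried by 54 of them, salmon names (ssa) by 6 and carp names (ccr) by 4.

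The larvae were wild-type zebrafish of the AB strain, taken as whole bodies at 7 days after fertilisation. They were the offspring (F1) of fish held for 90 days, starting 6 hours after fertilisation, in water holding 6 β-diketone antibiotics mixed in equal weights, at 0 (the control), 6.25 or 12.5 mg/L. The fluoroquinolones were ofloxacin (ofluoxacin in the labels), ciprofloxacin and enrofloxacin, and the tetracyclines were doxycycline, chlortetracycline and oxytetracycline. The labels give no exposure of the larvae themselves. Each of the 3 groups had 1 library, so no value below has a replicate check, no test was possible, and "higher" and "lower" describe these libraries only. Summed over the 1202 sequences, each taken once, the estimated counts were 4534557 in the control, 5099264 at 6.25 and 6041242 at 12.5 mg/L. Below, the reads of a library are these sums. Reads of muscle (miR-133a-3p), neuron (miR-124-3p and miR-9-5p), liver (miR-122), epithelium (miR-200a-3p and miR-205-5p) and lens and retina (miR-204-5p) were present in all 3 libraries. Some were at unlike levels, while miR-133a-3p had similar ones (111353, 114309 and 115249 normalised reads in the order of doses). In the order of doses, miR-122 had 18653, 24393 and 12901 normalised reads, miR-9-5p had 202725, 205556 and 137620, and miR-124-3p had 9832, 13512 and 15151. The part of these markers' cell types in the members' values was not tested. In whole-body RNA, fewer cells of a type and less RNA per cell cannot be told apart.

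A miRNA is cut from a hairpin precursor, and either arm of the hairpin (5p or 3p) can be loaded into an Argonaute protein, where bases 2 to 8, the seed, choose the target mRNAs. Many miRNAs lie in introns of protein-coding genes and can be transcribed with them. Some of the family names here are also used in other vertebrates, as with the lizard and chicken sequences described below. For families first named in fish, targets are known for few. One exception is miR-722, which in zebrafish restrains neutrophil migration through rac2.

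The RefSeq gene table of the assembly GRCz12tu, used for names and neighbours only, annotates 28 precursors for 26 of the 27 families, and 19 of them lie within the span of a protein-coding gene. It gives no strand. Both miR-455 precursors lie inside cartilage collagen genes, col27a1a and col27a1b, and miR-457a is a neighbour of miR-15b. Receptor genes hold miR-458 (htr4, a serotonin receptor), miR-722 (gcgrb, a glucagon receptor), miR-734 (epha6, an ephrin receptor) and miR-2187 (chrm3a, a muscarinic acetylcholine receptor). miR-459 lies inside runx1, a transcription factor gene of blood development. miR-736 lies inside myh7, a gene of ventricular myosin heavy chain, and miR-2188 inside ank1a, the ankyrin of the red cell membrane skeleton. Opsin genes stand beside or around 4 of the families. miR-726 lies between the blue and red cone opsin genes opn1sw2 and opn1lw1, miR-729 beside the ultraviolet cone opsin gene opn1sw1, and miR-727 and miR-728 side by side inside tmtopsb, a non-visual opsin gene.

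Sequences are printed as reads in the table, 5′ to 3′, with the seed of the read in capitals. Those of miR-722, miR-729 and miR-455-2-5p start later than their annotated forms, by 2, 1 and 1 nt. The first set is shown because it carries most of the reads of these families.
miR-459-5p: tCAGTAACaaggattcatcctg
miR-458-3p: aTAGCTCTttgaatggtactgc
miR-725-3p: tTCAGTCAttgtttctagtagt
miR-2184: aACAGTAAgagtttatgtgctg
miR-722: tTTTGCAGaaacgtttcagatt
The second set is shown because it holds the members that differed most between libraries, or that the opsin, muscle and blood loci carry.
miR-2189: tGATTGTTtgtatcagctgtgt
miR-2191: tCACACCTacaatccctggca
miR-726: tTCACTACtagcagaactcggt
miR-727-3p: gTTGAGGCgagttgaagactta
miR-727-5p: tCAGTCTTcaattcctcccagc
miR-728: aTACTAAGtacactacgttttc
miR-729: aTGGGTATgatacgacctgggt
miR-736: gTAAGACGaacaaaaagttttt
miR-2188-5p: aAGGTCCAacctcacatgtcct
A last set is shown for its seeds. The 5p reads of the 2 miR-455 precursors share a seed and differ by C21T (the base of miR-455-5p, the position from the 5′ end, the base of miR-455-2-5p). miR-457b-5p has the seed of miR-15b-5p, a family known in mammals for holding back the cell cycle. The read of miR-723-3p, which starts 1 nt later than the annotated form, has the seed of the read of miR-489.
miR-455-5p: tATGTGCCcttggactacatcg
miR-455-2-5p: tATGTGCCcttggactacattg
miR-457b-5p: aAGCAGCAcataaatactggag
miR-15b-5p: tAGCAGCAcatcatggtttgta
miR-723-3p: aGACATCAattaaatctgtgc
miR-489: tGACATCAtatgtacggctgct

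Values below are the authors' normalised reads, which are read counts times 1 factor per library. A ratio is that of the normalised values, with an exact 95% interval of its counts. Intervals cover counting error only, because PCR copies are not independent molecules and the spread between larvae is not measured. The factors matter for direction. Scaling the counts to equal totals instead adds 0.32 to every log2 ratio of 12.5 over the control, 0.28 to those of 12.5 over 6.25 and 0.04 to those of 6.25 over 0. Scaling by the median of ratios changes them by -0.09, 0.02 and -0.11. Directions turned by a scaling are given with the members' values.

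All 64 sequences together took 1.67% (1.66 to 1.68) of the reads in the control, 1.94% (1.93 to 1.96) at 6.25 and 1.79% (1.77 to 1.80) at 12.5 mg/L, with exact binomial intervals. In normalised reads the same sums were 89245, 101241 and 76465, so the 12.5 mg/L library was above the control as a share of reads and below it as normalised by the authors. The 5 most abundant, which are those of the first set, held 69.9% of these reads in the control, 68.1% at 6.25 and 63.9% at 12.5 mg/L. Levels spanned a wide range. Of the 64 sequences, 24 averaged at least 100 normalised reads per library, 8 averaged 10 to 100, and 32 had less than 10 (at most 6.37). The 32 with a mean of 10 or more belonged to 20 families and are the ones counted against the table as a whole, in which 471 of 1202 sequences reach that mean.

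**Figure D1:**
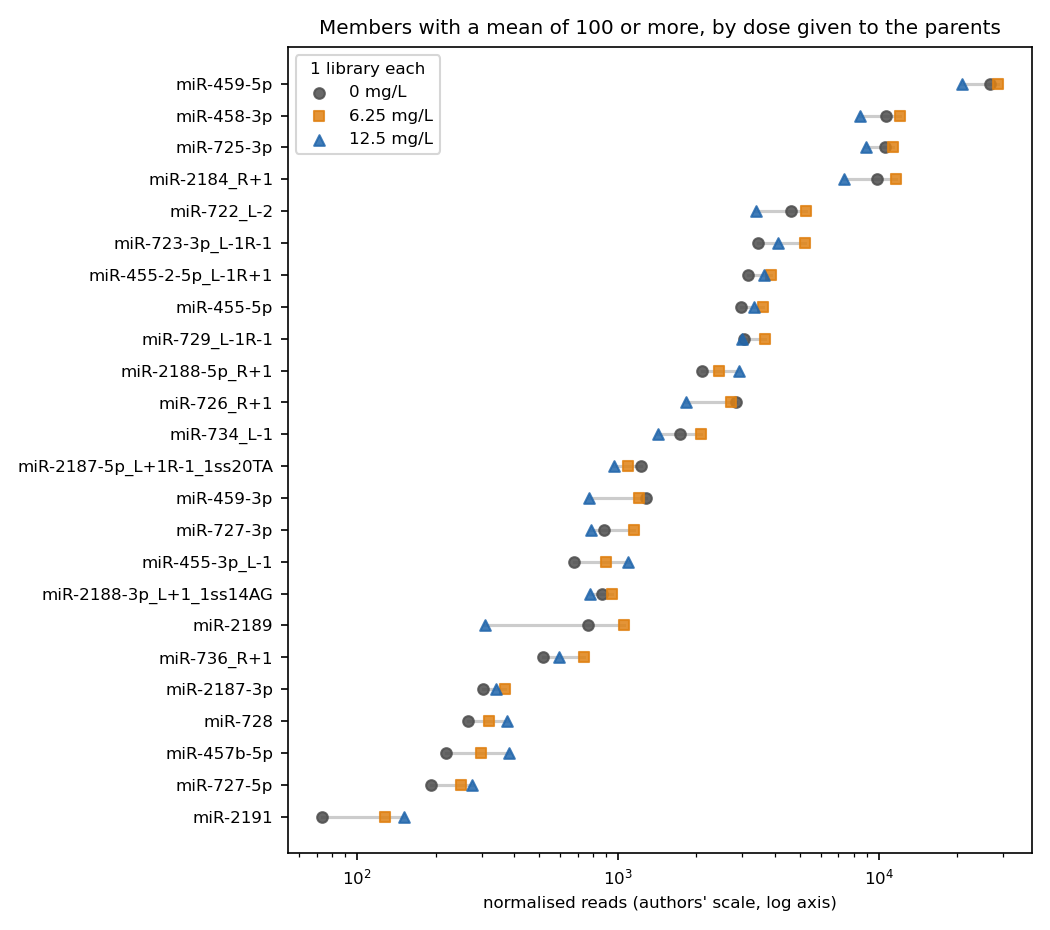
Normalised reads (log axis) of the 24 members with a mean of 100 or more, 1 point per library and 1 library per dose given to the parents. miR-459-5p is the most abundant at each dose, and miR-2189 has the widest gap between the 6.25 mg/L library (1054) and the 12.5 mg/L library (310).

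The most abundant members were highest at 6.25 mg/L and lowest at 12.5 mg/L, and none of them differed by 2-fold. miR-459-5p had 26756 normalised reads in the control, 28671 at 6.25 and 20789 at 12.5 mg/L. The ratio of 12.5 over the control was 0.777 (0.764 to 0.791), and that of 6.25 over the control was 1.07 (1.05 to 1.09), which turns to a log2 ratio of -0.01 with the median of ratios. With equal totals the log2 ratio of 12.5 over the control is only -0.04. miR-458-3p, inside the serotonin receptor gene, had 10618, 12019 and 8452 in the order of doses. Its 12.5 mg/L library was lower than both others, with ratios of 0.796 (0.774 to 0.818) over the control and 0.703 (0.685 to 0.721) over 6.25 mg/L. With equal totals the log2 ratio over the control is -0.009, so the lower value against the control depends on the scaling. miR-725-3p had 10528, 11364 and 8913. Its ratio of 12.5 over the control, 0.847 (0.824 to 0.870), lies above 1 with equal totals (log2 ratio 0.08), so its direction depends on the scaling. At 6.25 over the control its ratio was 1.08 (1.05 to 1.11), a log2 ratio of 0.11 that turns to -0.001 with the median of ratios.

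miR-2184, with no precursor in the gene table, had 9868 in the control, 11606 at 6.25 and 7344 at 12.5 mg/L. The 12.5 mg/L library was the lowest under each of the 3 scalings, with ratios of 0.744 (0.723 to 0.766) over the control and 0.633 (0.616 to 0.650) over 6.25 mg/L. The neutrophil regulator miR-722 had 4614, 5267 and 3392, read 2 nt short at its 5′ end. It was lower at 12.5 mg/L than at either other dose under each scaling (0.735, 0.705 to 0.767, over the control and 0.644, 0.619 to 0.670, over 6.25 mg/L). miR-723-3p behaved otherwise, with 3455, 5210 and 4107. It was 1.51-fold higher at 6.25 than in the control (1.44 to 1.58) and 1.19-fold higher at 12.5 than in the control (1.14 to 1.24).

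Other members inside receptor genes or runx1 were less abundant. miR-734, inside the ephrin receptor gene, had 1734, 2085 and 1422 in the order of doses. It was 1.20-fold higher at 6.25 than in the control (1.12 to 1.29), while its lower value at 12.5 than in the control (ratio 0.820) turns to a log2 ratio of 0.03 with equal totals. The scarcer arm miR-459-3p had 1286, 1201 and 774, and was lowest at 12.5 mg/L under each scaling (ratio 0.602 over the control, 0.553 to 0.655). Inside the muscarinic receptor gene, miR-2187-5p had 1228, 1092 and 968 and miR-2187-3p had 303, 369 and 340. The arms of that hairpin were thus on opposite sides of the control library, with ratios of 12.5 over the control of 0.788 (0.726 to 0.855) for 5p and 1.12 (0.961 to 1.31) for 3p, where the interval of 3p includes 1. With equal totals the log2 ratio of 5p at 12.5 over the control is only -0.02. At 12.5 over 6.25 mg/L both arms had log2 ratios below 0 (-0.17 for 5p and -0.12 for 3p), which turn to 0.11 and 0.16 with equal totals. The read of miR-2187-5p carries T20A against its annotated form and 1 nt more at its 5′ end, and that form was the abundant one in all libraries.

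The cartilage-linked miR-455 was higher in both libraries from offspring of exposed parents than in the control. Its form miR-455-2-5p had 3161 in the control, 3845 at 6.25 and 3628 at 12.5 mg/L, while miR-455-5p had 2958, 3603 and 3332. The balance of both precursors differed by less than its counting error. miR-455-2-5p took 51.7% (50.3 to 53.0) of the 5p reads in the control, 51.6% (50.5 to 52.8) at 6.25 and 52.1% (51.1 to 53.1) at 12.5 mg/L. For both, the ratio of 6.25 over the control was 1.22 (1.16 to 1.28). At 12.5 over 6.25 mg/L their log2 ratios were -0.08 and -0.11, and 0.20 and 0.17 with equal totals. The other arm, miR-455-3p read 1 nt short at its 5′ end, had 679, 897 and 1092. It was in dose order under each scaling, with a ratio of 12.5 over the control of 1.61 (1.46 to 1.77).

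miR-457b-5p, which shares the seed of miR-15b-5p, had 219 normalised reads in the control, 300 at 6.25 and 383 at 12.5 mg/L. Its values were in dose order under each scaling, and the ratio of 12.5 over the control was 1.75 (1.47 to 2.07). miR-457b-3p had 83.2, 97.6 and 75.9, and its log2 ratio of 12.5 over the control, -0.13, turns to 0.19 with equal totals. The seed itself was carried mostly by others. Outside these families 8 sequences of the table had it, and miR-15b-5p alone had 22041, 25181 and 22537. Of the 23 seeds among the members with a mean of 100 or more, 18 occurred in no sequence outside these families. For 2 of the 5 shared seeds, those of miR-726 and miR-2188-5p, the outside sequence had the same miRNA number with a lizard or chicken prefix. A cattle-named sequence listed at 0 in all 3 libraries shared the seed of miR-725-3p. The seed of miR-723-3p was shared with miR-489 (4900, 5756 and 4445).

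The 4 families beside or inside opsin genes did not share a direction at 12.5 mg/L. miR-726, between the cone opsin genes, had 2824 normalised reads in the control, 2703 at 6.25 and 1822 at 12.5 mg/L. Only the 12.5 mg/L library stood apart, with a ratio of 0.645 over the control (0.610 to 0.682), and it was lowest under each scaling. miR-729, beside the ultraviolet opsin gene, had 3040, 3658 and 3001. It was 1.20-fold higher at 6.25 than in the control (1.14 to 1.27) and had a ratio of 0.987 at 12.5 over the control (0.94 to 1.04), an interval that includes 1. With equal totals that log2 ratio is 0.30, so its direction turns.

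Inside tmtopsb, the neighbours miR-727-5p and miR-728 had matching orders and the other arm of miR-727 did not. miR-727-5p had 193, 250 and 275 and miR-728 had 265, 321 and 377, so both were in dose order under each scaling. Their ratios of 12.5 over the control were 1.43 (1.18 to 1.72) and 1.42 (1.21 to 1.67). At 12.5 over 6.25 mg/L the ratio of miR-727-5p was 1.10 (0.934 to 1.29), an interval that includes 1. miR-727-3p, the more abundant arm, had 884, 1152 and 789. It was 1.30-fold higher at 6.25 than in the control (1.19 to 1.43), and its ratio of 0.893 at 12.5 over the control (0.813 to 0.981) turns to a log2 ratio of 0.16 with equal totals. Over the 5 sequences of the opsin group, the median log2 ratio was 0.27 at 6.25 over the control, against 0.11 over all 471 sequences, and -0.02 at 12.5 over the control, against 0.08. The last median is the value of miR-729, so its direction also turns with equal totals.

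miR-736, inside the ventricular myosin gene, had 516 normalised reads in the control, 743 at 6.25 and 596 at 12.5 mg/L. Both libraries from offspring of exposed parents were above the control library, by ratios of 1.44 (1.28 to 1.63) at 6.25 and 1.16 (1.03 to 1.30) at 12.5 mg/L. Inside the red cell ankyrin gene, miR-2188-5p had 2095, 2449 and 2900. It was in dose order under each scaling (ratio of 12.5 over the control 1.38, 1.31 to 1.46). Its partner miR-2188-3p had 872, 949 and 784, and its ratio of 12.5 over the control, 0.899 (0.819 to 0.989), turns to a log2 ratio of 0.17 with equal totals. Of the red cell markers miR-144 and miR-451, only miR-144-5p is given here. It had 2982, 3104 and 1809 normalised reads in the order of doses. On the authors' scale miR-144-5p and miR-2188-3p were both highest at 6.25 and lowest at 12.5 mg/L, whereas miR-2188-5p was highest at 12.5 mg/L. With equal totals miR-2188-3p too was highest at 12.5 mg/L, with a log2 ratio over 6.25 mg/L of 0.007. A link of either arm to red cells was not tested.

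miR-2189 differed most among the members with a mean of 100 or more. It had 770 normalised reads in the control, 1054 at 6.25 and 310 at 12.5 mg/L. The 12.5 mg/L library was far below both others, and the 6.25 mg/L library was 1.37-fold above the control (1.24 to 1.51). Among the 298 sequences of the table with such a mean, its log2 ratio was the lowest at 12.5 over 6.25 mg/L (-1.76) and second from the bottom at 12.5 over the control (-1.31). At 12.5 over 6.25 mg/L it was past 2-fold under each scaling, whereas at 12.5 over the control it was -0.99 with equal totals. Its seed occurred in no other sequence of the table. The 3 sequences whose centred log2 values over the 3 libraries lay nearest to it were miR-7a with 1 nt more at its 3′ end (distance 0.49), miR-190b (0.60) and miR-7a (0.62). With 3 libraries such nearness is a description of their order and size of difference only.

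miR-2191, inside the ubiquitin ligase gene marchf9, was the other member of this abundance past 2-fold. It had 73.1 normalised reads in the control, 128 at 6.25 and 151 at 12.5 mg/L. Both libraries from offspring of exposed parents were higher than control, by ratios of 1.75 (1.28 to 2.41) at 6.25 and 2.06 (1.55 to 2.79) at 12.5 mg/L. The dose order held under each scaling, but with the median of ratios the log2 ratio of 12.5 over the control was 0.94, short of 2-fold. At 12.5 over 6.25 mg/L the ratio was 1.18 (0.944 to 1.49), an interval that includes 1.

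Counted over the 32 members with a mean of 10 or more, few passed 2-fold on the log2 scale with 1 added to each normalised value. At 6.25 over the control, 1 was at least 2-fold higher, where 2.55% of all 471 sequences were, and 0 were at least 2-fold lower, where again 2.55% of all sequences were. That 1 was the carp-named miR-738, whose interval includes 1 (ratio 2.38, 0.706 to 10.3). At 12.5 over the control, 4 were higher (10.8% of all sequences) and 1 lower (4.25%). The lower one was miR-2189, and the higher ones were miR-2191, miR-738, a substituted miR-725-3p and a miR-737-5p with an unread base. Of these, miR-738 (mean 11.0) and the miR-725-3p form (mean 10.2) reach the mean of 10 only through the 12.5 mg/L library, so their calls there follow in part from the filter. At 12.5 over 6.25 mg/L, 3 were higher (11% of all sequences) and 1 lower (3.4%). The lower one was again miR-2189. The higher ones were the same forms of miR-725-3p, with the same limit, and miR-737-5p, and the scarce arm miR-723-5p, which had 34.2, 23.5 and 55.3 normalised reads in the order of doses (ratio 2.35, 1.46 to 3.93). These shares of 32 are close to those of the table, given that a single sequence is a step of several percent.

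Small differences made up most of the picture. Of the 32 members, 28 lay within 1.5-fold at 6.25 over the control (87.5%, against 83.4% of the 471), 20 at 12.5 over the control (62.5%, against 65.4%) and 24 at 12.5 over 6.25 mg/L (75.0%, against 66.0%). At 6.25 over the control, 25 of 32 log2 ratios were above 0, where 59.4% of the table was, and the median was 0.25 against 0.11. At 12.5 over the control, 17 were above 0 (54.4% of all sequences), with a median of 0.16 against 0.08. That median is -0.09 over the 24 members with a mean of 100 or more and 0.48 with equal totals. At 12.5 over 6.25 mg/L, 12 were above 0 (49.9% of all sequences), with a median of -0.22 against -0.002, and with equal totals the members' median is 0.06. Each pair of these comparisons shares a library.

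In the order of the libraries, 10 of the 24 members with a mean of 100 or more were highest at 6.25 mg/L and lowest at 12.5 mg/L, which is 41.7% against 26.8% of the 298 sequences of that abundance. With equal totals 5 of the 24 had that order (20.8% against 13.1%), namely miR-2184, miR-2189, miR-458-3p, miR-459-5p and miR-722. There miR-458-3p and miR-459-5p were close to the control at 12.5 mg/L (log2 ratios -0.009 and -0.04). Another 6 were in rising dose order, as were 22.5% of the 298, and with equal totals 10 were (41.7% against 37.2%).

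**Figure D2:**
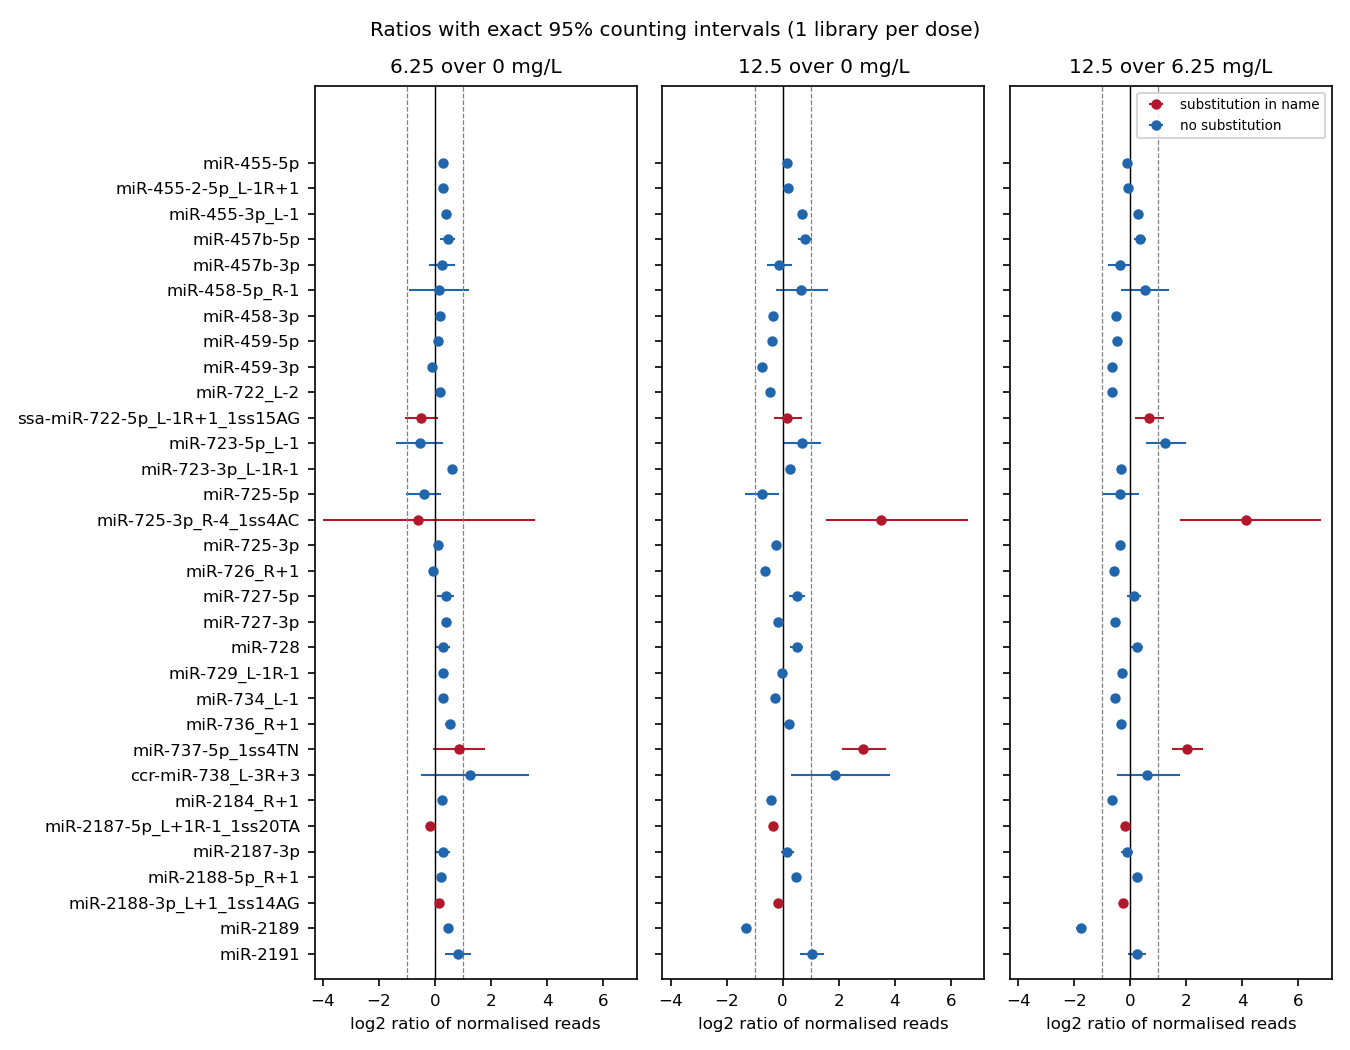
Log2 ratios of normalised reads, with no pseudocount, for the 32 members with a mean of 10 or more, in 3 comparisons with 1 library per dose. Bars are exact 95% counting intervals, dashed lines mark 2-fold, red points carry a substitution in their name. Most points lie between the dashed lines. miR-2189 lies to the left of them in both comparisons of the 12.5 mg/L library.

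Shares of the arms within a family do not depend on the scaling between libraries. For miR-455 the 5p reads of both precursors were summed, so its shares are not those of a single hairpin. Of 9 families with zebrafish-named forms of both arms at a mean of 10 or more, 6 had intervals of the arm share that did not overlap between 12.5 and the control, against 61.8% of 68 such families in the table. Between 6.25 and the control it was 2 of 9 (42.6% of the 68), and between 12.5 and 6.25 mg/L 5 of 9 (54.4% of the 68). Non-overlap was thus common in the table as a whole. In size, the median difference of the arm share between 12.5 and the control was 3.57 percentage points in the 9 families, against 0.98 over all 68. Between 6.25 and the control it was 0.56 against 0.54, and between 12.5 and 6.25 mg/L 0.88 against 0.62. The 68 include the 9, and the 2 sets were not matched for depth or for how evenly the arms divide the reads. The widest differences were those of miR-457b, miR-2188 and miR-727. For miR-457b the 5p arm took 83.5% of the reads at 12.5 mg/L (80.2 to 86.1), against 72.5% in the control (66.8 to 78.0). In miR-2188 the 5p arm took 78.7% at 12.5 mg/L (77.6 to 79.8), against 70.6% in the control (68.8 to 72.4). In miR-727, where 5p is the scarcer arm, it took 25.9% at 12.5 mg/L (23.6 to 28.1), against 17.9% in the control (15.5 to 20.6). These 3 families had close shares at 6.25 and the control (75.4%, 72.1% and 17.8% for the 5p arms at 6.25 mg/L).

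The direction was not the same in each family. The scarcer arm took a larger share at 12.5 than in the control in miR-455 (3p, 13.6% at 12.5 mg/L and 9.99% in the control), miR-727 and miR-2187 (its main arm 5p took 74.0% at 12.5 mg/L and 80.2% in the control). It took a smaller share in miR-457b, miR-2188 and miR-459 (3p, 3.59% at 12.5 mg/L and 4.59% in the control). For miR-2187 the 5p share was 74.8% at 6.25 mg/L, near that of the 12.5 mg/L library.

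**Figure D3:**
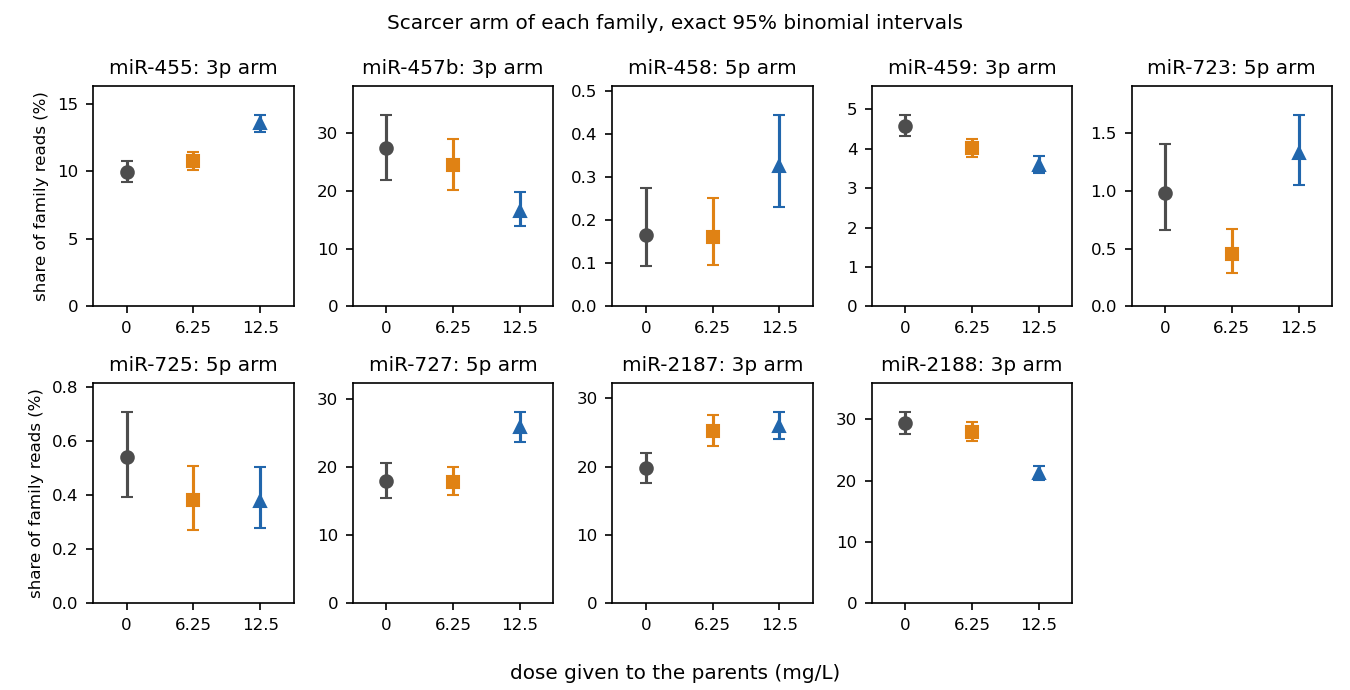
Share of each family's reads taken by its scarcer arm in each library, with exact 95% binomial intervals (counting error only). Axes start at 0 and differ between panels. The 12.5 mg/L library stands above the control library for miR-455 and miR-727 and below it for miR-457b and miR-2188.

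Opposite arms that the table lists under precursor names, and which the naming rule leaves out, add a partner for some families. The 5p partner of miR-726, with a substitution in its name, had 1403, 1340 and 1174 in the order of doses, and the 3p partner of miR-2184 had 589, 800 and 518. The 5p partner of miR-729 had 296, 259 and 196, and that of miR-728 had 149, 148 and 104, lowest at 12.5 mg/L where miR-728 was highest. The 5p partner of miR-736 had 74.9, 112 and 67.4, and that of miR-2191 had 15.3, 15.3 and 4.25. The remaining partner forms averaged less than 10. All these values are on the authors' scale. Other scalings were not applied to the partners, so their directions at 12.5 mg/L may depend on the scaling.

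Several members are forms with a base that differs from the annotated one, and most of these, by number, were highest at 12.5 mg/L. Of the 30 members with a substitution in their name, 23 were highest in the 12.5 mg/L library (76.7%, against 57.2% of the 416 substituted sequences of the table). Of the 34 without one, 13 were highest there (38.2%, against 28.0% of 786). The shares of the table also count any sequence listed at 0 in all 3 libraries, as the cattle-named one was, which would lower them. At 12.5 mg/L, 29 of the 30 members and 321 of the 416 sequences were above 0. Members and table are thus not compared like for like here. The 12.5 mg/L library also has the largest sum of counts, and the part of depth in this was not tested. Only 5 of the 30 had a mean of 10 or more, and 20 of the 25 below it were highest at 12.5 mg/L. On the authors' scale the summed normalised reads of the 30 ran the other way, with 2200, 2140 and 2051 in the order of doses. On that scale the abundant miR-2187-5p and miR-2188-3p were lowest at 12.5 mg/L, but with equal totals neither was. As a share of reads the 30 took 0.0411%, 0.0411% and 0.0479%, so the direction of their sum depends on the scaling. The A4C form of miR-725-3p, 4 nt short at its 3′ end, had 2.36 normalised reads in the control, 1.53 at 6.25 and 26.8 at 12.5 mg/L. It stood nearly alone in the 12.5 mg/L library (ratio over the control 11.3, 2.95 to 97.7), while the annotated miR-725-3p had a ratio of 0.847, whose direction depends on the scaling. The A4C form reaches the mean of 10 only through the 12.5 mg/L library. A carp-named miR-457a form with G3T was listed at 0 in the control and at 6.25 mg/L, where 3 counts would be 3.54 and 3.06 normalised reads, and had 15.6 at 12.5 mg/L. These reads are shown with the substituted base in capitals, for comparison with the unsubstituted miR-725-3p and with the seed of miR-457b-5p above.
miR-725-3p A4C form: ttcCgtcattgtttctag
miR-457a G3T form: taTcagcacatcaatattggca

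Some reads held the letter N, a base the sequencer did not call. Among the members 9 did, each with 1 N, at read position 4 in 7 of them and at position 1 in 2, and all 9 were highest in the 12.5 mg/L library. The most abundant is miR-737-5p, shown here with the uncalled base in capitals.
miR-737-5p: gttNttttaggttttgatttt
It had 18.9 normalised reads in the control, 33.7 at 6.25 and 136 at 12.5 mg/L. The ratio of 12.5 over the control was 7.23 (4.33 to 12.9). The only other miR-737 sequence, which starts 3 nt later, had 1.18 in the control and was listed at 0 in both others, so the level of this family rests on reads with the N. Reads with an N took 218 (121 to 343), 345 (238 to 479) and 1975 (1719 to 2258) per 1000000 member reads in the order of doses. Without miR-737 they took 6.61 (0 to 48.8), 12.1 (0.256 to 56.2) and 191 (121 to 298) per 1000000 member reads in the order of doses. The other 8 had at most 5.67 normalised reads in any library. Over the table, 70 sequences held an N, 48 of them at position 4, and 67 were highest at 12.5 mg/L. Per 1000000 reads of the library they took 54.6 (48.1 to 61.9) in the control, 49.4 (43.5 to 55.9) at 6.25 and 207 (196 to 219) at 12.5 mg/L. Reads with an N were thus most frequent in the 12.5 mg/L library, both among the members and over the table, which includes them. The part of uncalled bases in the values of miR-737 was not tested. The A4C form of miR-725-3p above, nearly alone in that library, has its substitution at read position 4 too. A link between that form and the uncalled bases was not tested.

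**Figure D4:**
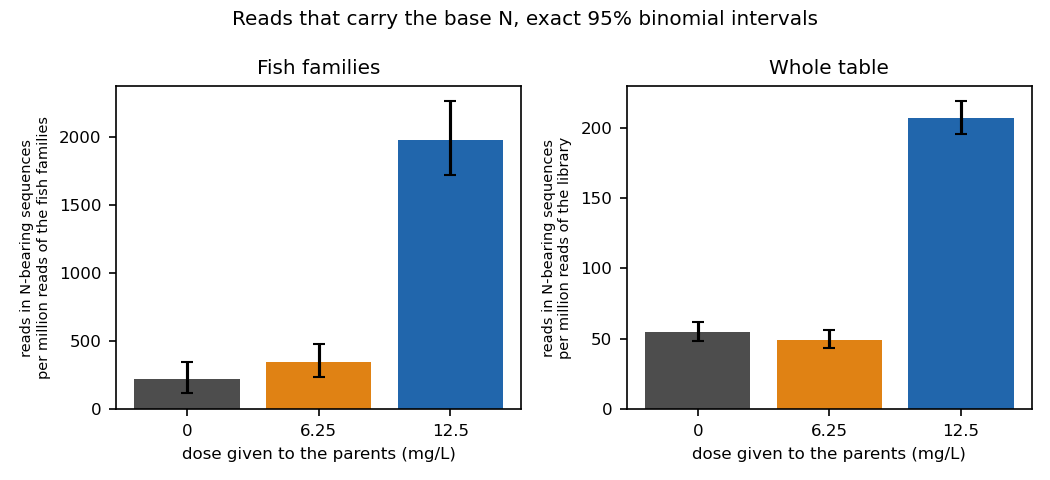
Reads in sequences that carry an uncalled base, per 1000000 reads of the fish families (left) and of the library (right), with exact 95% binomial intervals. The 12.5 mg/L library is highest in both panels (207 per 1000000 of the counts summed over all sequences).

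For 3 of the scarce families the RefSeq gene table gives another RNA class at the same place. The locus with the synonym dre-mir-735 has the symbol rny2, a Y RNA, miR-733 has the synonym vtrna4, a vault RNA, and miR-738 lies within the span of an rRNA gene. Their reads were few. miR-735 and miR-733 were each present in 1 library (1.02 normalised reads at 6.25 and 1.42 at 12.5 mg/L), and miR-738 had 4.72, 11.2 and 17.0 in the order of doses. miR-738 at 12.5 over the control had a ratio of 3.61 (1.24 to 14.3).

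The other members with a mean of 10 to 100 were scarce arms. The 5p arm of miR-458 had 17.7, 19.4 and 27.7 in the order of doses, that of miR-725 had 57.2, 43.4 and 34.0, and the salmon-named 5p arm of miR-722 had 66.7, 47.5 and 74.8. Of these, the interval of 12.5 over the control excluded 1 for miR-725-5p alone (ratio 0.595, 0.394 to 0.916). The families below a summed mean of 10 were miR-460, miR-724, miR-730, miR-732, miR-733, miR-735 and miR-2192, 7 in all, each with at most 5.67 normalised reads in any library.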

How the data were processed

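Small RNA of whole larvae was extracted with Trizol and sequenced from TruSeq libraries as single-end reads, per the labels' protocols. Zv9 is the build in the submitters' processing notes. No aligner, miRNA database or counting rule is named in the sources used here. The authors deposited, per the file headers, raw values, which are estimated counts per sequence (78.2% whole, tolerance 1e-09), and normalised values, a signal that equals the count times 1.18 (0 mg/L), 1.02 (6.25 mg/L) or 0.709 (12.5 mg/L).

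The table of all 3 libraries was used, and lines of the same sequence were taken once, under the most abundant name. Log2 ratios used a pseudocount of 1. Calls were by size, 2-fold, among sequences with a mean of 10 or more. Counts were rounded for exact (Clopper-Pearson) 95% intervals. The calculation was checked only on simulated independent whole counts, which lack the fractional values and PCR copies of the real data. In names, L and R give bases added or missing at the 5′ and 3′ ends, and ss the substituted bases. Members with a mean of 100 or more were named. Of those from 10 to 100, the ones past 2-fold whose interval excludes 1 and the most abundant form of a family were named. Scarcer arms, forms of very low level and miR-457a were added after their values were seen. The members and lists were chosen with earlier results of these data known. Software was Python 3.11.15, pandas 2.3.3, scipy 1.17.1 and matplotlib 3.10.9. The alternatives were other pseudocounts, scalings, filters and name sets, and summed forms.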

Additional observations from a re-analysis of the deposited data

How the results depend on the processing

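No paired analysis was possible because each dose has 1 library, and none could be left out. Pseudocounts of 0.5 and 10 changed the direction of no named member. With equal totals, these log2 ratios turned. At 12.5 over 0 mg/L, miR-725-3p was 0.0804, miR-727-3p 0.16, miR-729 0.30, miR-734 0.0346, miR-2188-3p 0.17 and the scarcer miR-457b-3p 0.19. Between 12.5 and 6.25 mg/L, miR-455-2-5p was 0.20, miR-455-5p 0.17, miR-2187-5p 0.11, miR-2187-3p 0.16 and miR-2188-3p 0.00704. With the median of ratios, at 6.25 over 0 mg/L, miR-459-5p was -0.0118 and miR-725-3p -0.00142. A scaling moves all ratios of a comparison by the same amount, which is the cause of these turns.

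The members' median log2 ratio at 12.5 over 0 mg/L was 0.48 with equal totals, 0.44 with no filter and -0.0856 at a mean of 100 or more. At 12.5 over 6.25 mg/L it was 0.0575 with equal totals and 0.24 with no filter. Counts past 2-fold moved most with no filter, which adds members of a few reads. They were then 5 higher and 3 lower at 6.25 over 0 mg/L, 15 higher and 2 lower at 12.5 over 0 mg/L, and 11 higher and 3 lower at 12.5 over 6.25 mg/L. At 6.25 over 0 mg/L, 0 were higher with a pseudocount of 10, at a mean of 100 or more, or with zebrafish names only. At 12.5 over 0 mg/L, 2 were higher with a pseudocount of 10, 2 without substituted sequences and 1 at a mean of 100 or more, and with equal totals 6 were higher and 0 lower. Between 12.5 and 6.25 mg/L, 1 was higher without substituted sequences and 0 at a mean of 100 or more. The members' share of reads, in the order of doses, was 1.63%, 1.90% and 1.74% without substituted sequences, and 1.53%, 1.78% and 1.67% with all lines summed. Depth limits the scarce members, whose intervals span several-fold.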
